A study of Mus musculus with 16 samples.

Results

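Rnaset2a, Rnaset2b, Tagap, Tagap1, Dynlt1a, Dynlt1b, Dynlt1c and Dynlt1f are the annotated copies of the Rnaset2, Tagap and Dynlt1 genes on the proximal part of mouse chromosome 17. These 8 genes were chosen by measured values, namely the difference between Aire-/- and Aire+/+ libraries in the same data, so their genotype values are a description and were not tested. All 8 symbols were found among the 24431 symbols of the count tables. At least 1 UMI (unique molecular identifier, which marks a captured RNA molecule so that its amplified copies are counted once) was present for 6 of the 8, and 5 had at least 100 UMIs over both libraries of each of the 8 genotype pairs, a depth that 8505 genes reached. The study compared Aire+/+ mice with Aire-/- littermates on the C57BL/6 background that were given MC38 tumor cells, a C57BL/6-derived colon carcinoma line, at 8 weeks of age. Mice received anti-PD1 antibody or Isotype Control, and tumors and spleens were taken on day 19. CD45+ cells, which are leukocytes, and CD8+ cells were sorted from each tissue, pooled over several mice, and captured on the 10x Chromium instrument. The labels name a kit for the 3′ end of RNA, but the study also gives T cell receptor sequences for cells of the CD8+ libraries, which its methods tie to a 5′ kit, so the end of the RNA that those libraries read is uncertain. The groups were therefore Aire+/+ with Isotype Control, Aire+/+ with anti-PD1, Aire-/- with Isotype Control and Aire-/- with anti-PD1, each with 4 libraries (tumor CD45+, tumor CD8+, spleen CD45+ and spleen CD8+). With 1 library per condition, no test between conditions was run and no difference has a replicate library to check it. A pair is an Aire-/- and an Aire+/+ library of the same tissue, sort and treatment. Libraries of the same genotype and treatment can come from the same pooled mice, so the 8 pairs are not 8 independent sets of animals. The 95% intervals given with ratios cover counting error only.

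The 16 libraries held 37609 barcodes, of which 37453 passed the cell filter, with 1856 to 2944 cells per library. Summed UMIs per library were between 10926701 and 38928101, and the median UMIs per cell were between 4413.5 and 12251.5, lower in the spleen libraries than in the tumor libraries. Any pair of libraries shared between 2 and 18 barcodes, with a median of 7 over 120 pairs, and 861 of 36578 distinct barcodes occurred in more than a single library. Aire, which codes for the autoimmune regulator of the thymus, had 0 to 6 UMIs per library and 0 to 4 in the Aire-/- libraries, so the genotype of a library could not be checked by it. The deleted part of the gene is not given in the sources used here, and tags can lie outside it. Xist was detected in all 16 libraries, at 171 to 369 CPM (UMIs of a gene per 1000000 UMIs of its library), while the Y-linked genes Ddx3y and Eif2s3y had 2 UMIs each over all libraries and Kdm5d and Uty had 0. The T cell genes Cd3d, Cd3e and Cd3g and the CD8 genes Cd8a and Cd8b1 were detected in every library, those of the CD45+ sort included.

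The makeup of 3 libraries stood apart in markers of macrophages, tumor or stromal cells and red cells. Cells with macrophage or monocyte markers made up 34.7% of the Aire-/- anti-PD1 tumor CD45+ library and 65.2%, 69.7% and 75.6% of the other tumor CD45+ libraries. The 4 macrophage markers (C1qa, C1qb, C1qc and Ms4a7, all detected, C1qb highest) summed to 1050 CPM in that library and to between 4225 and 6286 CPM in the other tumor CD45+ libraries. T class cells made up 20.2% of it, against 7.06% to 8.97% of the others, and NK class cells 8.43%, against 2.25% to 5.71%. Its 3 T cell markers, led by Cd3g, summed to 1669 CPM, against 306 to 585 CPM, and its 2 CD8 markers, led by Cd8b1, to 986 CPM, against 95.3 to 295 CPM. The Aire-/- isotype tumor CD8+ library held 100.2 CPM of tumor or stromal markers, of which 4 of 5 were detected, Col1a1 led at 68.0 CPM and Krt8 was at 0. These markers summed to between 2.36 and 23.3 CPM in the other libraries. The Aire+/+ isotype spleen CD8+ library held 247 CPM of the 4 erythroid markers, all detected and led by Hbb-bs at 152 CPM, against 0 to 43.2 CPM elsewhere. The medians of the detected members are also given for the 5 pairs without these libraries. Further libraries differed in other markers. The 4 neutrophil markers, led by S100a9 and all detected, summed to 370 CPM in the Aire-/- and 1526 CPM in the Aire+/+ library of the spleen CD45+ isotype pair, and to 1738 and 744.5 CPM with anti-PD1. The 3 plasmacytoid dendritic markers summed to 264 CPM in the Aire+/+ isotype tumor CD8+ library, led by Siglech at 107 CPM, and to between 40.4 and 134 CPM in the other tumor CD8+ libraries. The spleen CD45+ pairs are among the 5 pairs. Plasmacytoid dendritic markers were at 125 CPM in Aire-/- and 264 CPM in Aire+/+ in the tumor CD8+ isotype pair, which is not among them. In the tumor CD8+ anti-PD1 pair they were at 40.4 and 134 CPM. That pair is among the 5 and stays when the spleen CD45+ pairs are left out. Over the 3 pairs that remain without the spleen CD45+ pairs, Rnaset2b had a median genotype log2 ratio of -1.24, Tagap1 of 2.87 and Dynlt1b of 1.49, each as Aire-/- over Aire+/+. The part of these differences in the values of the members was not tested. In library sums, fewer cells of a type that express a gene and less RNA of that gene per cell cannot be told apart.

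Rnaset2 codes for ribonuclease T2, an acid ribonuclease of lysosomes that is also secreted and that cuts single-stranded RNA, a step that supplies ligands to RNA-sensing Toll-like receptors. Tagap codes for a GTPase-activating protein linked to T cell activation, expressed in lymphocytes and myeloid cells, and its gene family includes a distorter locus of the mouse t-complex on this chromosome. Dynlt1 codes for the Tctex-1 light chain of cytoplasmic dynein, the motor that carries cargo towards the minus ends of microtubules.

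On GRCm38 the GENCODE vM21 models of the 8 members lie on chromosome 17 between 6306340 and 8148097, a span of 1.84 Mb. In order along the chromosome they are Dynlt1a (chr17:6306340-6317500, minus strand), Dynlt1b (chr17:6430112-6436296, plus), Dynlt1c (chr17:6601671-6609774, plus), Dynlt1f (chr17:6646602-6655900, minus), Tagap1 (chr17:6955011-6961156, minus), Rnaset2b (chr17:6970634-7011299, plus), Tagap (chr17:7926000-7934897, plus) and Rnaset2a (chr17:8115445-8148097, minus). Tagap1 and Rnaset2b are neighbours. Rsph3b (chr17:6904413-6948682, minus), a copy of the gene for a radial spoke head protein of cilia, lies on the far side of Tagap1 from Rnaset2b, and its paralog Rsph3a (chr17:7945614-7979824, plus) follows Tagap.

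The copies share sequence, which was counted in words of 55 bases in the longest coding GENCODE vM21 transcript of each gene. Over the whole transcript, 80.3% of the words of Rnaset2a and 80.5% of those of Rnaset2b occur in transcripts of another gene. The shares are 45.7% for Tagap and 66.9% for Tagap1. They are 57.4% for Dynlt1a, 83.1% for Dynlt1b, 93.1% for Dynlt1c and 92.3% for Dynlt1f. For Rsph3a and Rsph3b they are 72.4% and 74.3%. The last 500 bases, which bear on reads of the 3′ end, hold 446 words. Of these words, 385 (86.3%) of Rnaset2a occur in transcripts of Rnaset2b and as many of Rnaset2b in those of Rnaset2a. Tagap and Tagap1 share 204 words (45.7%). All 446 words of Dynlt1b and of Dynlt1c occur in another gene, as do 391 (87.7%) of Dynlt1f, whereas Dynlt1a has 0 shared words there. Rsph3a and Rsph3b share 373 words (83.6%). The gene model that the counts used is uncertain, and gene ends differ between models. Dynlt1b ends at 6440500 in RefSeq and at 6436296 in GENCODE, and Rnaset2b at 6998193 and 7011299. The shares of the last 500 bases therefore need not hold for the model that was counted. A read inside a shared word cannot be placed on a single copy, so counts of these genes can be split between copies or lost, and the level of any copy is uncertain. The paralog sum, which adds the UMIs of all copies of a gene, does not depend on how counts were split between these copies. It can still miss counts that were lost or placed on other genes. Over the whole transcript, Rnaset2a shares 852 words with Gm49673, Rnaset2b shares 852 with Gm49721 and Tagap1 shares 129 with Fgfr1op.

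Rnaset2a had 0 UMIs in all 16 libraries. A count of 0 allows up to 0.0771 to 0.275 CPM of counted UMIs, depending on the depth of the library (3 counts of the total). This limit covers counting error only, not reads in shared words that were lost before counting. Rnaset2b had 29012 UMIs, so the Rnaset2 sum equalled Rnaset2b in every library. The tables hold Rnaset2b on both strands, with 29011 UMIs on the plus strand of its gene model and 1 on the minus strand.

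Rnaset2b, the detected ribonuclease T2 copy, was lower in the Aire-/- library of all 8 pairs. The lowest, median and highest levels over the 8 Aire+/+ libraries were 65.2, 117 and 178.5 CPM. In the 8 Aire-/- libraries they were 28.1, 41.9 and 74.0 CPM. The ranges overlapped only through the lowest Aire+/+ library, tumor CD45+ with isotype, and the highest Aire-/- library, which came from the spleen CD8+ sort with anti-PD1. The log2 ratio of Aire-/- over Aire+/+ had a median of -1.34 (from -2.30 to -0.79), that is 2.54-fold lower. Its counting interval excluded 0 in all 8 pairs. The share of all genes with intervals that exclude 0 was not counted, here or for the members below. The log2 ratio of Rnaset2b was past 2-fold in 7 of 8 pairs.

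The share of all genes past 2-fold lower in Aire-/- is set beside that count, and nothing is read from it because this contrast chose the gene. In tumor CD45+ pairs it was 0.473% with isotype and 4.74% with anti-PD1. In tumor CD8+ pairs it was 1.03% with isotype and 1.33% with anti-PD1. Spleen CD45+ pairs had 1.09% with isotype and 1.12% with anti-PD1, and spleen CD8+ pairs 1.31% and 0.279%. Of the 8505 genes with enough UMIs in each pair, 0 (0%) were past 2-fold lower in all 8 pairs.

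Over the 8 pairs, Rnaset2b differed least and most in tumor. The pair with the smallest difference was tumor CD45+ with isotype, at 37.6 CPM in Aire-/- and 65.2 CPM in Aire+/+ (log2 ratio -0.79, interval -0.90 to -0.69). The pair with the largest was tumor CD8+ with anti-PD1, at 28.1 and 138.3 CPM (-2.30, interval -2.42 to -2.18), a 4.93-fold difference. Between them the other tumor pairs stood at -1.42 (CD45+, anti-PD1) and -1.29 (CD8+, isotype). Spleen pairs were closer together, at -1.30 and -1.39 in CD45+ cells with isotype and anti-PD1 and at -1.55 and -1.24 in CD8+ cells. The intervals of the extreme tumor pairs did not touch those of any other pair, while those of several middle pairs overlapped. Tumor and spleen had near-equal medians, -1.35 and -1.34. Over the 5 pairs without the libraries that stood apart, the median was -1.30.

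Because all counted Rnaset2 UMIs were placed on Rnaset2b and none on Rnaset2a, the start regions of both copies are shown. RefSeq start regions were available for 6 of the 8 members, as 7 windows on GRCm38.p6. The aligned windows of Rnaset2b (chr17:6978655-6978909, plus strand, inside the GENCODE model of the gene) and Rnaset2a (chr17:8147783-8148037, minus strand) were equal at 254 of 255 bases, with the differing base in capitals.
Rnaset2b: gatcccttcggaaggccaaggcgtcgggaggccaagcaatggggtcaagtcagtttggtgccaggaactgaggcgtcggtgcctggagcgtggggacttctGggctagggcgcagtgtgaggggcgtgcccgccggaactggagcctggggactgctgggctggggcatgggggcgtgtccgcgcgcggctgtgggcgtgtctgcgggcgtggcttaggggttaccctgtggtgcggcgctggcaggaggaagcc
Rnaset2a: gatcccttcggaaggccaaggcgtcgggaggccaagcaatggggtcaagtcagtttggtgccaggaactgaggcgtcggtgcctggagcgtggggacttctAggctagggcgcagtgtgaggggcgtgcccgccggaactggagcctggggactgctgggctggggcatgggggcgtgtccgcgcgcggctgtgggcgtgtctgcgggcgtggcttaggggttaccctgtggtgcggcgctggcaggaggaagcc

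Tagap, the more abundant of its copies by UMIs, was higher in Aire-/- in 6 pairs and lower in 2. Its lowest, median and highest levels were 38.6, 72.8 and 144.8 CPM in Aire+/+ libraries. In Aire-/- libraries they were 59.4, 101 and 136.9 CPM, inside the Aire+/+ range. The log2 ratio had a median of 0.37 (from -0.37 to 0.73) and was past 2-fold in 0 of 8 pairs. Both pairs with lower Tagap in Aire-/- came from tumor CD8+ cells, at -0.37 with isotype and -0.08 with anti-PD1. The CD45+ pairs lay between 0.31 and 0.73, whereas the CD8+ pairs lay between -0.37 and 0.38. The summed T cell markers were also higher in Aire-/- in all 4 CD45+ pairs, at 585 against 306 CPM and 1669 against 466 CPM in tumor and at 731 against 480 CPM and 747 against 626 CPM in spleen, each with isotype and then anti-PD1. In the tumor CD45+ pairs the log2 ratio of Tagap was 0.55 with isotype and 0.73 with anti-PD1 over all cells, but -0.48 and -0.06 within cells of the T class. Within macrophage or monocyte class cells of the 4 CD45+ pairs it was above 0 in 3 and below 0 in 1 (from -0.90 to 0.86). Within B class cells of the spleen CD45+ pairs it was 1.03 and 0.44. The part of the makeup of the libraries in the values of Tagap was not tested. Over the 5 pairs without the libraries that stood apart, the median was 0.36.

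Tagap1, its paralog next to Rnaset2b, was higher in Aire-/- in all 8 pairs. Its levels were low, with 1527 UMIs over all libraries, of which 1285 came from Aire-/- and 242 from Aire+/+ libraries. The lowest, median and highest Aire+/+ levels were 0.765, 1.24 and 1.98 CPM, from 20 to 50 UMIs per library. In Aire-/- they were 4.51, 8.42 and 12.8 CPM, from 86 to 297 UMIs per library. The ranges did not overlap. Among all 8505 genes, the 8 Aire-/- libraries lay above the 8 Aire+/+ libraries without overlap for 5 genes (0.0588%) and below them for 1 gene (0.0118%), Snhg3. The log2 ratio of Tagap1 had a median of 2.53 (from 1.86 to 4.06), that is 5.77-fold higher, and was past 2-fold in 8 of 8 pairs.

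Beside that count, the share of all genes past 2-fold higher in Aire-/- was 2.01% in tumor CD45+ cells with isotype and 6.2% with anti-PD1. It was 1.09% and 0.399% in the matching tumor CD8+ pairs. Spleen CD45+ pairs had 0.18% with isotype and 0.381% with anti-PD1, and spleen CD8+ pairs had 0.975% and 1.24%. Only 3 of 8505 genes (0.0353%) were past 2-fold higher in all 8 pairs, and these were BC002163, Tagap1 and Dynlt1b. The pair with the highest share, tumor CD45+ with anti-PD1, is also the pair with the smaller macrophage share in its Aire-/- library.

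Tagap1 differed most in tumor CD45+ cells with anti-PD1, where 297 UMIs in Aire-/- stood against 22 in Aire+/+ (log2 ratio 4.06, interval 3.43 to 4.76). It differed least in spleen CD8+ cells with anti-PD1, with 117 against 38 UMIs (1.86, interval 1.32 to 2.43). Counting error was wide at these depths, and the intervals of neighbouring pairs overlapped. The tumor pairs had a median of 2.98 and the spleen pairs of 2.17. Without the libraries that stood apart, the median over 5 pairs was 2.18 (from 1.86 to 3.09).

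The Tagap sum was carried by Tagap. It ranged from 40.3 to 145.8 CPM in Aire+/+ and from 67.7 to 145.4 CPM in Aire-/- libraries, with medians of 73.8 and 107 CPM, and its log2 ratio had a median of 0.46 (from -0.32 to 0.87) and of 0.45 over those 5 pairs. Tagap1 made up 0.684% to 4.29% of the sum in Aire+/+ libraries, with a median of 1.92%. In Aire-/- libraries its share was 4.38% to 12.3%, with a median of 9.47%. The shares, which do not depend on library scaling, met almost edge to edge without overlapping.

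Dynlt1b, the most abundant Dynlt1 copy by UMIs, was higher in Aire-/- in all 8 pairs. It had 23240 UMIs, 15367 in Aire-/- and 7873 in Aire+/+ libraries. The lowest, median and highest Aire+/+ levels were 22.9, 44.7 and 57.3 CPM. Those of Aire-/- libraries were 53.7, 112 and 142 CPM. The ranges overlapped by a narrow margin, since the lowest Aire-/- library (tumor CD8+, isotype) lay below the highest Aire+/+ library (tumor CD45+, isotype). The log2 ratio had a median of 1.35 (from 1.08 to 1.53), that is 2.55-fold higher, and was past 2-fold in 8 of 8 pairs.

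The 8 ratios of Dynlt1b spanned less than those of the other members that differed in each pair. The lowest came from tumor CD8+ cells with isotype, at 53.7 against 25.4 CPM (log2 ratio 1.08, interval 0.95 to 1.20). That pair holds the Aire-/- library with raised tumor or stromal markers. The highest came from tumor CD8+ cells with anti-PD1, at 66.0 against 22.9 CPM (1.53, interval 1.39 to 1.66). The CD45+ pairs had a median of 1.28 and the CD8+ pairs of 1.45. Over the 5 pairs without the libraries that stood apart the median was 1.39 (from 1.22 to 1.53), and the genes past 2-fold higher in all 5 were again BC002163, Dynlt1b and Tagap1 (3 of 8547 genes, 0.0351%, against 0, 0%, that were lower).

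Dynlt1a, a further copy at the proximal end of the cluster, did not differ in a common direction. Its lowest, median and highest levels were 6.57, 10.3 and 13.2 CPM in Aire+/+ libraries and 6.74, 10.2 and 15.95 CPM in Aire-/- libraries. It was higher in 4 pairs and lower in 4, with a median log2 ratio of -0.0045 (from -0.27 to 0.35). That median was 0.22 over the 5 pairs without the libraries that stood apart and also 0.22 when each cell was given equal weight, and 0.28 over the 3 pairs that are also without the spleen CD45+ pairs.

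Dynlt1c had 0 UMIs in all 16 libraries on both strands that the tables list. Dynlt1f had 301 UMIs, 2 to 35 per library, and reached the filter of 100 UMIs in 0 pairs. Its levels were 0.554 to 1.90 CPM in Aire+/+ and 0.0892 to 1.82 CPM in Aire-/- libraries, so the ranges overlapped. It was lower in Aire-/- in 7 pairs, with a median log2 ratio of -0.42 (from -2.87 to 0.15), and the counting interval excluded 0 in 2 pairs. Over the 5 pairs without the libraries that stood apart, the median was -0.52.

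The Dynlt1 sum followed Dynlt1b. The lowest, median and highest levels were 30.0, 55.9 and 71.0 CPM in Aire+/+ and 60.5, 123 and 158 CPM in Aire-/- libraries. Its log2 ratio had a median of 1.17 (from 0.82 to 1.32), 2.24-fold higher, and was past 2-fold in 7 of 8 pairs. Over the same 5 pairs the median was also 1.17. Within the sum, Dynlt1b made up 74.4% to 80.7% in Aire+/+ libraries and 88.7% to 91.7% in Aire-/- libraries. Dynlt1a made up 15.3% to 23.7% and 6.98% to 11.1%. Neither of these shares overlapped between genotypes, whereas that of Dynlt1f, 0.796% to 4.25% in Aire+/+ and 0.128% to 1.60% in Aire-/-, did.

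The start regions of Dynlt1c and Dynlt1f are shown because the former was at 0 and the latter was the least abundant of the detected copies. The aligned RefSeq windows on GRCm38.p6, Dynlt1c at chr17:6601529-6601720 (plus strand) and Dynlt1f at chr17:6655890-6656081 (minus strand), were equal at 189 of 192 bases, with differing bases in capitals.
Dynlt1c: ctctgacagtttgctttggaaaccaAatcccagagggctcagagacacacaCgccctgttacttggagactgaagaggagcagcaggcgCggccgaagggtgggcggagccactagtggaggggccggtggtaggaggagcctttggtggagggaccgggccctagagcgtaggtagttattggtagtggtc
Dynlt1f: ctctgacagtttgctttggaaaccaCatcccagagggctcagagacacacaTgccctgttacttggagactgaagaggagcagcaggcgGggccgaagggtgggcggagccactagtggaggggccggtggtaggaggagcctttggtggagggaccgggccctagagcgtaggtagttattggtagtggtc

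Among the genes between and beside the members, Rsph3a, Rsph3b and Tmem181a were singled out after their values were seen. Rsph3b, next to Tagap1, was higher in Aire-/- in all 8 pairs, with 3.83, 5.28 and 6.76 CPM as the lowest, median and highest Aire+/+ levels. The Aire-/- levels were 7.59, 9.88 and 16.5 CPM. The ranges did not overlap, and the median log2 ratio was 1.01 (from 0.45 to 1.31), past 2-fold in 4 of 8 pairs. Rsph3a, next to Tagap, was lower in all 8 pairs, at 14.9, 17.6 and 24.7 CPM in Aire+/+ and 8.85, 14.4 and 17.8 CPM in Aire-/- libraries. Its ranges overlapped, and its median log2 ratio was -0.32 (from -0.81 to -0.10). The Rsph3 sum had a median log2 ratio of 0.05 (from -0.35 to 0.35), so it was near equal between genotypes while Rsph3b made up 17.5% to 27.1% of it in Aire+/+ and 33.9% to 49.9% in Aire-/- libraries. Tmem181a (chr17:6256860-6308314, plus strand), which overlaps the end of Dynlt1a on the other strand, was higher in all 8 pairs at 23.5 to 41.3 CPM against 16.5 to 25.1 CPM, with a median log2 ratio of 0.72 (from 0.04 to 0.86). Over the 5 pairs without the libraries that stood apart, the medians were 1.03 for Rsph3b, -0.31 for Rsph3a and 0.78 for Tmem181a.

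**Figure D1:**
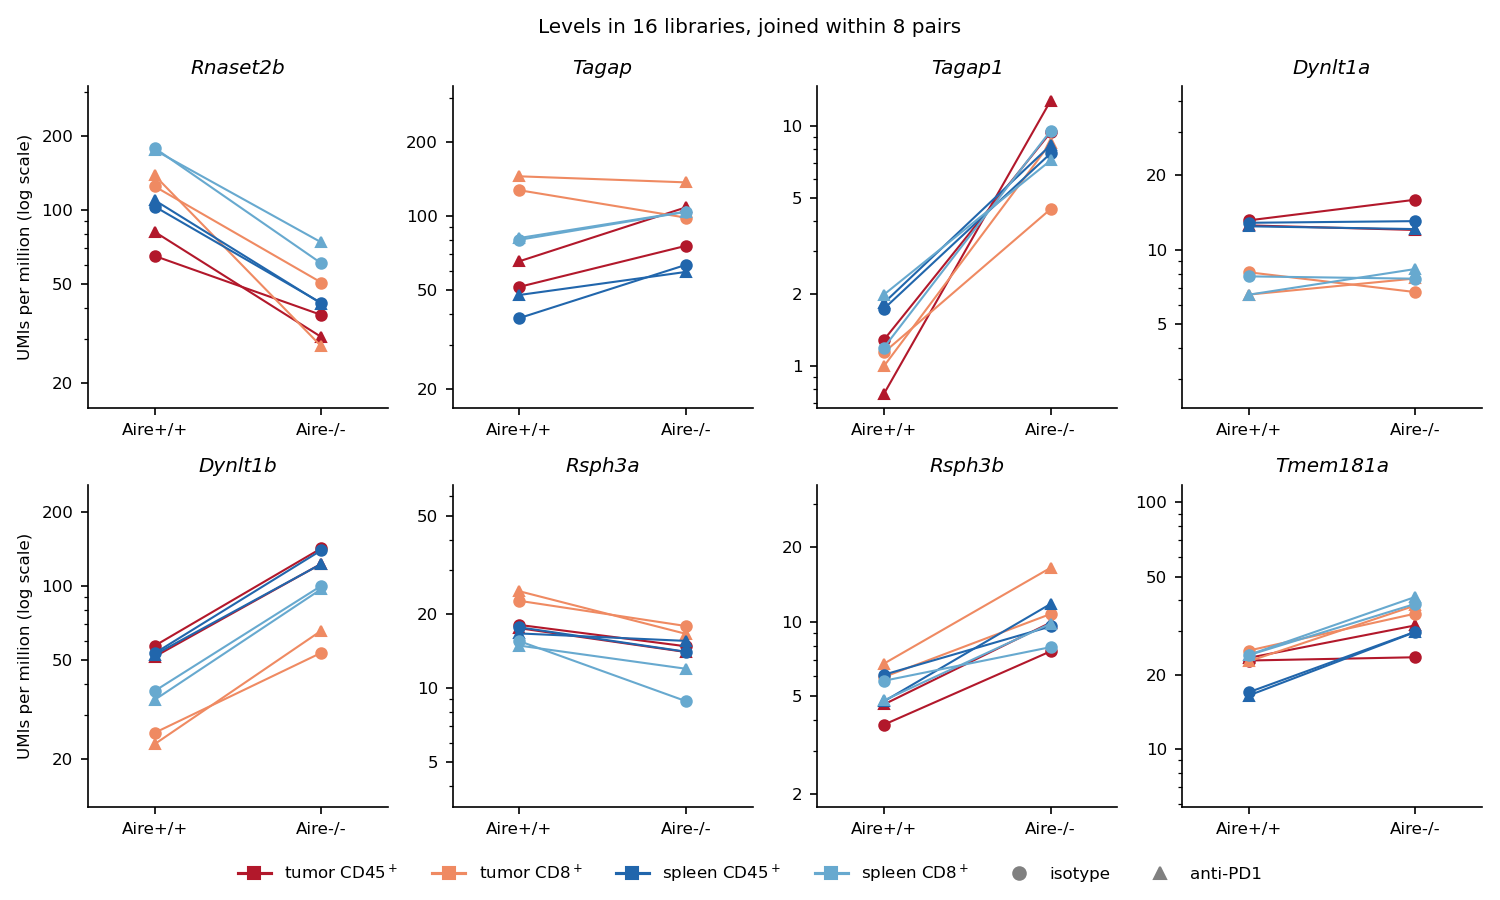
Level of each gene in CPM (log axis) in the Aire+/+ and the Aire-/- library of 8 pairs, joined by a line, colored by tissue and sort, with circles for isotype and triangles for anti-PD1. All 8 lines slope down for Rnaset2b and Rsph3a and up for Tagap1, Dynlt1b, Rsph3b and Tmem181a, whereas those of Tagap and Dynlt1a go both ways.

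Over all 8505 genes, 348 (4.09%) were higher in Aire-/- in all 8 pairs by any size and 142 (1.67%) were lower in all 8. When genes were ordered by their smallest log2 ratio over the pairs, BC002163 came first among the higher genes, with a median of 2.80 (from 2.17 to 3.61), followed by Tagap1, Dynlt1b, Ubxn11 and Sytl1. BC002163, which the tables list on chromosomes 16 and 4, ranged from 69.6 to 127 CPM in Aire-/- and from 9.38 to 17.7 CPM in Aire+/+ libraries. Ubxn11, which codes for a UBX domain protein, had a median of 1.12 (from 0.96 to 2.41), and Sytl1, a synaptotagmin-like protein of vesicle transport, one of 1.12 (from 0.74 to 2.46). Among the lower genes Rnaset2b came first. It was followed by Btaf1 (-0.52, from -0.76 to -0.40), Scarb1, the scavenger receptor for high-density lipoprotein (-0.72, from -1.01 to -0.37), Snhg3 (-0.61, from -0.78 to -0.33) and Alox5ap, the 5-lipoxygenase activating protein (-0.85, from -1.57 to -0.29). At a threshold of 1.5-fold in all 8 pairs, Erc1 joined BC002163, Dynlt1b, Sytl1, Tagap1 and Ubxn11 among the higher genes (6 of 8505, 0.0705%) and Rnaset2b was the only lower gene (0.0118%).

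Several of these genes lay on chromosome 4, while Btaf1 lay on chromosome 19 and Scarb1 and Alox5ap on chromosome 5. The tested genes of chromosome 4 were not counted, so nothing is read from these positions. Snhg3 started at 132.348 Mb, Sytl1 at 133.253 Mb and Ubxn11 at 134.103 Mb. Besides Tagap1, Rsph3b and BC002163, the genes higher in Aire-/- without overlap were Wdtc1, which started at 133.292 Mb, and Cap1, which started at 122.859 Mb on the same chromosome. Wdtc1 ranged from 17.6 to 25.1 CPM in Aire-/- and from 6.78 to 14.2 CPM in Aire+/+ libraries. Cap1, the cyclase-associated protein of actin turnover, ranged from 332 to 548 CPM and from 214 to 321 CPM. Snhg3, a host gene of small nucleolar RNA, ranged from 31.2 to 44.3 CPM in Aire-/- and from 47.4 to 69.0 CPM in Aire+/+ libraries.

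On chromosome 17, 41 genes that started within the first 20 Mb passed the filter in all pairs. Of these, 5 were higher in Aire-/- in all 8 pairs (Tmem181a, Dynlt1b, Rsph3b, Tagap1 and Chd1) and 4 were lower (Rnaset2b, Rsph3a, Mpc1 and Phf10), against 4.09% and 1.67% of all genes. Dynlt1b, Tagap1 and Rnaset2b were chosen by this contrast, so nothing is read from these counts. The median of their 41 median log2 ratios was 0.03. Tagap1, Dynlt1b and Rsph3b had medians of at least 1, and Rnaset2b had the only median of -1 or below. Chd1 (0.21), Mpc1 (-0.39) and Phf10 (-0.15) differed less than the members that differed in all pairs.

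**Figure D2:**
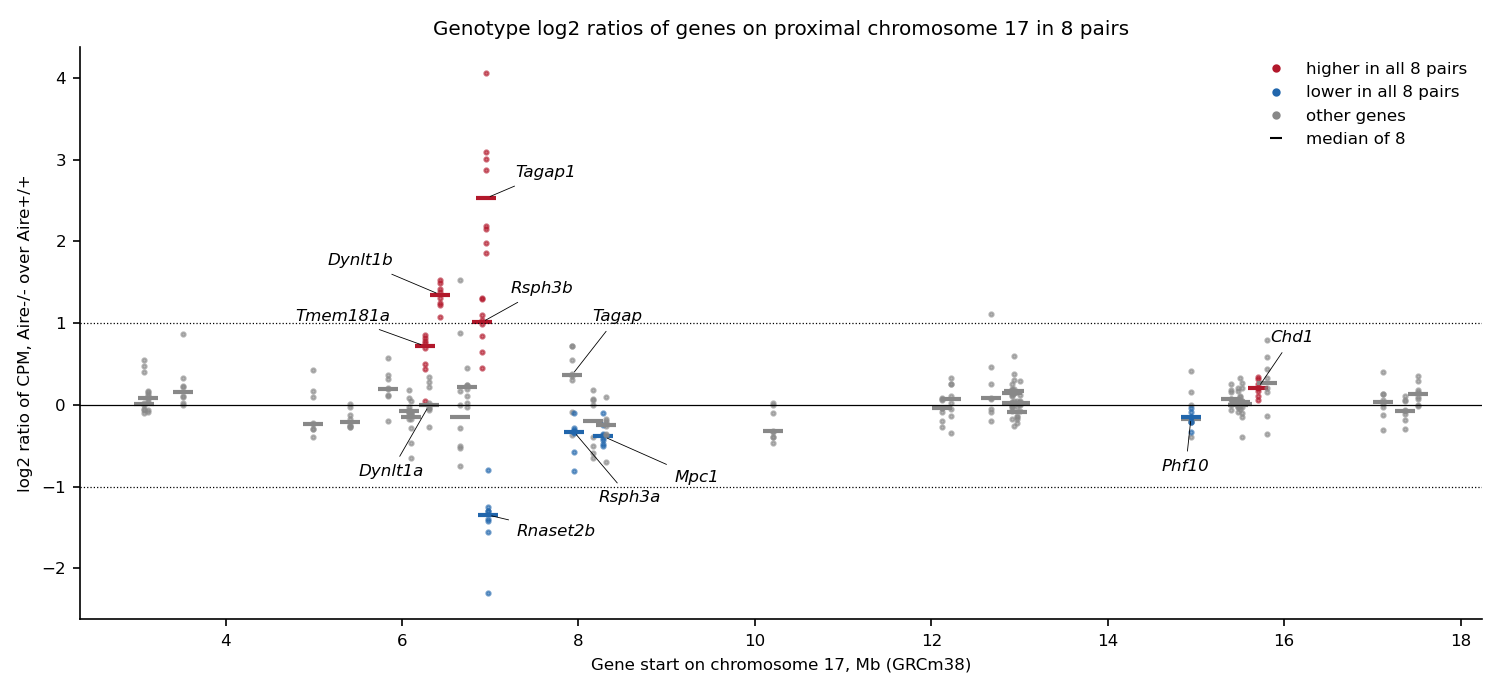
Log2 ratio of Aire-/- over Aire+/+ in 8 pairs (points, with a bar at the median) for 41 genes of proximal chromosome 17, placed by their start in Mb. Genes higher in all 8 pairs are red, genes lower in all 8 blue and others grey, and dotted lines mark 2-fold; the genes past the lines by their median are Tagap1, Dynlt1b, Rsph3b and Rnaset2b.

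The treatment and tissue contrasts did not choose the members. For anti-PD1 over isotype within genotype, tissue and sort, the median log2 ratio over 8 comparisons was 0.04 for Rnaset2b (from -0.86 to 0.32), and the values of Tagap lay between -0.10 and 0.52. Tagap1 lay between -0.75 and 0.92, Dynlt1a between -0.41 and 0.18 and Dynlt1b between -0.21 and 0.30, so that all values of these 5 members lay within 1 log2 unit of 0. Dynlt1f, from few UMIs, lay between -0.24 and 2.12. It was higher with anti-PD1 in 6 of 8 comparisons and past 2-fold in 2. Those 2 came from Aire-/- tumor CD45+ cells (13 against 5 UMIs) and tumor CD8+ cells (9 against 2 UMIs). Their intervals, -0.12 to 3.30 and -0.16 to 5.37, held 0. The share of all genes with such counts was not counted. The largest value of Rnaset2b came from tumor CD8+ cells of Aire-/- mice, at 50.9 CPM with isotype and 28.1 CPM with anti-PD1 (-0.86, from 1141 and 653 UMIs). In tumor CD8+ cells of Aire+/+ mice Rnaset2b was at 124.8 and 138.3 CPM (0.15). In the tumor CD45+ sort the Aire+/+ and Aire-/- values were 0.32 and -0.30. Each of these rests on a single library per arm, and the difference between the genotypes was not tested. Both Aire-/- values also use a library that stood apart. These are the tumor CD8+ isotype library, with raised tumor or stromal markers, and the tumor CD45+ anti-PD1 library, with the smaller macrophage share. Tagap was higher with anti-PD1 in 7 of 8 comparisons, with a median of 0.25, and 11.2% of 8408 genes were higher in at least 7. The smallest of these 7 values was 0.0028, in spleen CD8+ cells of Aire-/- mice, and the Tagap sum was higher in 6 of 8. The summed T cell markers were also higher with anti-PD1, except in spleen CD8+ cells of Aire+/+ mice (2626 against 2662 CPM). Their part in the values of Tagap was not tested. Dynlt1b was lower in 7 of 8, with a median of -0.13, as were 4.4% of genes in at least 7, and the Dynlt1 sum was lower in 7 as well.

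Between tissues, Rnaset2b was lower in tumor than in spleen in all 8 comparisons, with a median log2 ratio of -0.44 in the CD45+ sort (from -0.66 to -0.16) and of -0.43 in the CD8+ sort (from -1.40 to -0.26). Of 9148 genes, 30.7% were lower in tumor in all 8. Tagap was higher in tumor in the CD45+ sort (median 0.44, from 0.26 to 0.87) and in 3 of 4 comparisons of the CD8+ sort (median 0.53, from -0.08 to 0.83). Among all genes, 29.3% were higher in tumor in all 4 CD45+ comparisons and 50.9% in at least 3 of 4 CD8+ comparisons. Dynlt1b hardly differed between tissues in the CD45+ sort (median 0.01, from -0.03 to 0.10) and was lower in tumor in the CD8+ sort (-0.58, from -0.90 to -0.56), as were 36.7% of all genes in all 4 comparisons. Tagap1 had no common direction. Dynlt1f was lower in tumor in all 8 comparisons, with medians of -1.73 in CD45+ and -1.94 in CD8+ cells, from few UMIs. The makeup of the libraries differed between tissues as well. By marker classes, B cells made up 65.9% to 70.8% of the spleen CD45+ libraries and at most 0.0683% of the tumor CD45+ libraries, in which macrophages or monocytes made up 34.7% to 75.6%, against 2.51% to 7.16% in spleen. T class cells made up 58.8% to 66.4% of the spleen CD8+ and 41.6% to 51.4% of the tumor CD8+ libraries. Unassigned cells made up 30.7% to 39.7% and 44.8% to 54.8%. The summed T cell markers went the other way, at 2626 to 2837 CPM in spleen CD8+ and 3874 to 4589 CPM in tumor CD8+ libraries. The T class share of the CD8+ libraries is thus not read as a share of T cells. The part of makeup in the tissue values was not tested.

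To see the members within kinds of cells, cells were placed in classes by marker genes, as T, B, macrophage or monocyte, NK and other classes. A T class (Cd3 genes) held 13251 cells, or 35.4% of all, of which 2302 lay near the cut. The B class held 5885 cells, the macrophage or monocyte class 6225 and the NK class 583, and 10707 cells (28.6%) were left unassigned. Dendritic, neutrophil and plasmacytoid dendritic classes held 585, 140 and 77 cells and were not compared, although the dendritic class had over 50 cells in each library of the 2 tumor CD45+ pairs. Over libraries, cells of the T class had a median of 2 to 8 UMIs from the marker lists of the other classes, and those of the B class of 0 to 7. No doublets were removed, so a class can hold cells with RNA of another type. Ly6c2, a monocyte marker of the lists, was also abundant in the CD8+ libraries. In tumor it was at 1837 CPM in Aire-/- and 1319 CPM in Aire+/+ with isotype, and at 1792 and 1638 CPM with anti-PD1. In spleen it was at 689 and 494 CPM, and at 627 and 471 CPM. CD8+ cells with such RNA can be left unassigned. The T class can thus hold a part of the T cells that differs between genotypes, which was not tested.

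In the T class, compared in all 8 pairs, Rnaset2b was at 117, 160 and 207 CPM (lowest, median and highest) in Aire+/+ and at 21.6, 70.6 and 92.3 CPM in Aire-/- libraries. The median log2 ratio was -1.21 (from -2.59 to -0.94), and here the ranges did not overlap. Of 3347 genes with enough UMIs in the T class of each pair, 1 (0.0299%), Rnaset2b, was lower in Aire-/- without overlap and 4 (0.12%) were higher, namely Ahsa2, BC002163, Dynlt1b and Tspyl1. Dynlt1b stood at 21.2 to 37.7 CPM in Aire+/+ and 48.9 to 91.7 CPM in Aire-/- T class cells, with a median log2 ratio of 1.32 (from 0.60 to 1.76). Tagap1 had a median of 2.19 (from 0.69 to 3.22), with an interval that excluded 0 in 6 of 8 pairs. Tagap itself had a median of 0.04 (from -0.48 to 0.39), with 4 pairs higher and 4 lower. Its interval excluded 0 in 5 of 8 pairs, and all 4 tumor pairs were below 0 and all 4 spleen pairs above it. The Tagap sum did not split in this way, with 6 pairs higher and 2 lower. In tumor the sum was at -0.37 and 0.03 in CD45+ pairs and at -0.20 and 0.05 in CD8+ pairs, with isotype and then anti-PD1. The share of all genes with such a split was not counted.

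In the B class, compared in the 2 spleen CD45+ pairs, Rnaset2b was at 58.2 and 64.5 CPM in Aire+/+ and at 23.1 and 26.6 CPM in Aire-/- cells, with log2 ratios of -1.33 and -1.27. Tagap1 had ratios of 2.09 and 2.71 there and Dynlt1b of 1.62 and 1.36. Tagap was also higher, at 1.03 and 0.44. The direction of each gene was thus the same in both spleen pairs.

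In the macrophage or monocyte class, compared in the 4 CD45+ pairs, Rnaset2b ranged from 52.1 to 148 CPM in Aire+/+ and from 18.4 to 61.1 CPM in Aire-/- cells. Its median log2 ratio was -1.46 (from -2.06 to -0.95). Dynlt1b was more abundant in this class than in the other classes compared, with medians of 83.9 CPM in Aire+/+ and 236 CPM in Aire-/- cells and a median log2 ratio of 1.46 (from 1.34 to 1.75). Tagap was higher in 3 pairs and lower in 1 (from -0.90 to 0.86). Tagap1 had 4 UMIs in Aire-/- and 0 in Aire+/+ cells of the spleen CD45+ isotype pair, and the other pairs had ratios of 1.75 to 4.52. In the NK class, compared in the 2 tumor CD45+ pairs, Rnaset2b had log2 ratios of -0.70 and -1.42 and Dynlt1b of 0.79 and 1.51. Tagap was at -0.19 and -0.14, with intervals that held 0. Tagap1 had a ratio of 0.56 there with isotype, and 22 against 0 UMIs with anti-PD1.

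**Figure D3:**
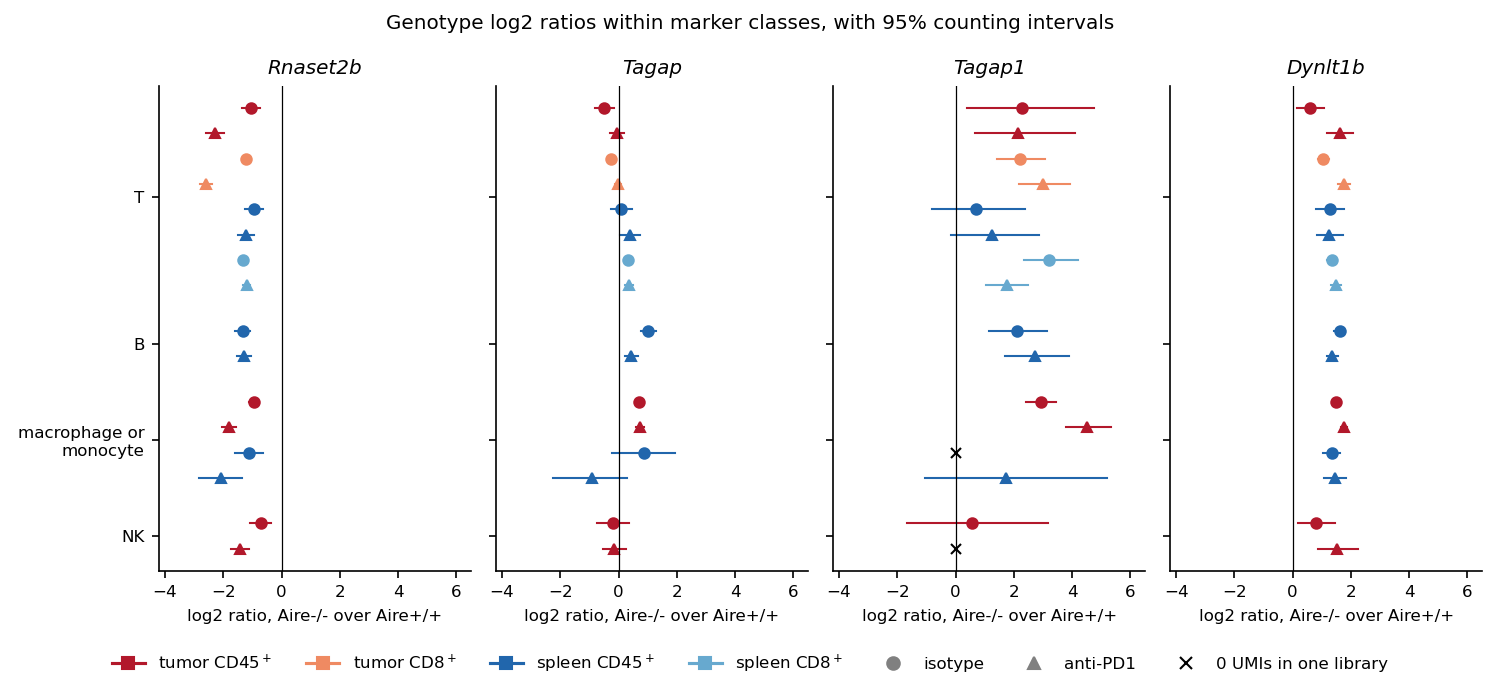
Log2 ratio of Aire-/- over Aire+/+ for Rnaset2b, Tagap, Tagap1 and Dynlt1b within T, B, macrophage or monocyte and NK classes, with 95% counting intervals and a point for each pair; a cross marks a pair with 0 UMIs in a library. Rnaset2b lies below 0 and Dynlt1b above 0 in every class and pair drawn, and Tagap lies on both sides.

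Genes that work with the members were described from lists, each beside the median log2 ratio of 0.01 over all 8505 genes and beside the 4.09% of all genes that were higher and 1.67% that were lower in all 8 pairs. Of 25 genes for RNA-digesting enzymes, RNA-sensing receptors and lysosomal proteins, 18 passed the filter, with a median of -0.10. Tlr7, a lysosomal receptor for RNA, was the only 1 of these 18 lower in all 8 pairs (-0.48), and 0 were higher in all 8. Its most abundant genes, the cathepsins Ctsb and Ctsd, had medians of -0.30 and 0.14.

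Of 27 dynein and dynactin genes, 23 passed, with a median of 0.02. Of these, 1 gene was higher in all 8 pairs, Dynll1, another dynein light chain (0.38), and 1 was lower, the dynactin subunit Dctn2 (-0.14), while the abundant capping protein gene Capzb had a median of -0.02. Of 66 neighbours on chromosome 17, 27 passed, with a median of 0.0089, and of these only Tmem181a and Rsph3b were higher and Rsph3a and Mpc1 lower in all 8 pairs. Below the filter, Tmem181b-ps (264 UMIs, median 1.59) and Tmem181c-ps (75 UMIs, median 1.22) were also higher in all 8. Of the 4445 words of the Tmem181a transcript, 1546 occur in Tmem181b-ps and 790 in Tmem181c-ps, so the level of each is uncertain. The abundant neighbours Psmb1, a proteasome subunit, and Ezr, which codes for ezrin, had medians of -0.0022 and 0.22. Of 32 genes listed as flanking Aire on chromosome 10, 20 passed, with a median of 0.01, and 0 were higher or lower in all 8 pairs. Rrp1b, which the tables place on chromosome 17, is among the 20. Itgb2 and Cstb were the most abundant of these, with medians of 0.12 and -0.11. Of 12 genes known to vary between C57BL/6 substrains, 5 passed, with a median of -0.01 and 0 in a common direction over all 8 pairs, and the abundant Cyfip2 and Ide had medians of 0.14 and -0.49. Ide was lower in 7 of 8 pairs, whereas Cyfip2 was higher in 7 of 8. Below the filter, Fgfbp3 (1407 UMIs, median -1.35) was also lower in 7 of 8, and Nlrp12 (34 UMIs) was lower in 5 and higher in 0. Crygn (407 UMIs, median -0.29) was lower in 6 and higher in 2. The share of all genes with counts such as these was not counted, so nothing is read from them. In none of these lists was a gene past 2-fold in all 8 pairs.

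The genes whose 8 genotype log2 ratios were most like those of a member were found by the root mean square difference over the 8 pairs among 8504 other genes. For Rnaset2b they were Cd300a (0.614), Alox5ap (0.669) and Tifab (0.742). For Tagap they were BC052040 (0.163), H2-Q8 (0.181) and Slc5a3 (0.192). For Tagap1 only BC002163 came near (0.783), before Ubxn11 (1.42) and Gzma (1.43), the gene for granzyme A. No such gene can be given for Rnaset2a, which had 0 UMIs. The likeness covers 8 pairs with a library each and was not tested.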

How the data were processed

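Single-cell RNA was measured in 16 libraries of sorted cells. The authors deposited UMI counts per gene and barcode, whole numbers with no normalization, made with Cell Ranger on GRCm38 according to the submitters' processing notes. The methods name the RefSeq gene model for RNA libraries made with the 5′ kit; whether these tables come from those is not stated, so the gene model used here is uncertain. Each table has 25127 rows; 27 rows of transgene or vector sequences, at most 4.06e-05% of UMIs in a library, were left out.

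Rows sharing a symbol, the text before the first separator of a name, were summed. Cells needed at least 200 genes and at most 20% mitochondrial UMIs. No doublet caller was run. UMIs were summed over cells and divided by all UMIs of the library (CPM). A count of 0 has a limit of 3 counts; other levels have exact Poisson, shares Clopper-Pearson and ratios conditional exact 95% intervals. Genes needed 100 UMIs over a pair, and called genes were past 2-fold. No p-value was computed. A cell joined a class with at least 3 UMIs of its markers and 3 times the next list, and a class needed 50 cells in both libraries; this class rule and the library sets without 3 or 5 of the pairs were chosen after seeing the data. The calculations were tested on simulated data.

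The members and lists (RNase T2 pathway, dynein, chromosome 17 neighbours, Aire flank, sex-specific genes, substrain-variable genes) were chosen with earlier results of these data known. A further list is not reported here. Named genes were the members, the 2 with the most UMIs in each list and any past 2-fold in all 8 pairs, the 5 most uniform genes in each direction, the 3 most like Rnaset2a, Rnaset2b, Tagap and Tagap1, and the sex-specific genes. Exceptions, named after their values were seen, were Rsph3a, Rsph3b, Tmem181a, Tmem181b-ps, Tmem181c-ps, Crygn, Fgfbp3 and Nlrp12. They also included markers and genes that make up counts of 6 or fewer. Rrp1b was named for its chromosome, Aire for the genotype and Gm49673, Gm49721 and Fgfr1op for shared words. Alternatives were no cell filter, gene-wise median scaling, scaling without mitochondrial and ribosomal genes, thinning to 1000 UMIs per cell, equal weight per cell, the T class alone, 10 UMIs, 1.5-fold, 5 pairs and 3 pairs. Coordinates came from GENCODE vM21 and start regions from RefSeq. Software was scipy 1.17.1, numpy 2.4.6, pandas 2.3.3 and matplotlib 3.10.9 under Python 3.11.15.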

Additional observations from a re-analysis of the deposited data

Results flagged for a closer look

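Within cells of the T class, the genotype difference of Tagap had opposite signs in the tissues, but that of the Tagap sum did not. The log2 ratio of Tagap, Aire-/- over Aire+/+, was above 0 in all 4 spleen pairs, with a median of 0.34. It was below 0 in all 4 tumor pairs, with a median of -0.16. In the tumor anti-PD1 pairs Tagap was near 0, at -0.06 (CD45+) and -0.03 (CD8+), with intervals that held 0. The Tagap sum, which does not depend on how counts were split between its copies, was at 0.03 and 0.05 there. It was above 0 in 6 of 8 pairs. The difference between tissues was not tested, and each pair has 1 library per genotype. The T class also leaves out CD8+ cells that the class rule left unassigned.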

How the results depend on the processing

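The median log2 ratios of Rnaset2b, Tagap1, Dynlt1b and the Dynlt1 sum kept their direction, and moved by less than the spread over the 8 pairs, with no cell filter, gene-wise median scaling, scaling without mitochondrial and ribosomal genes, thinned cells, equal weight per cell, the T class alone and, chosen after seeing the data, 5 pairs only and 3 pairs only. Those of Tagap and the Tagap sum, 0.37 and 0.46 in all cells, did so except in the T class alone, where Tagap was at 0.04, with 4 pairs higher and 4 lower, and the Tagap sum at 0.09. The median of Dynlt1a, near 0, was 0.22 with equal weight per cell, 0.22 over 5 pairs and 0.28 over 3 pairs, and that of Rsph3b was 0.70 in the T class alone. Gene-wise median scaling shifted the median of all genes by up to 0.11, in tumor CD45+ with anti-PD1. No median over all 8 pairs could be given for Dynlt1f with thinned cells or in the T class alone, since a library was at 0 UMIs.

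Counts of genes past the threshold, higher and then lower in Aire-/-, grew with a filter of 10 UMIs or a fold of 1.5, which admit more genes. In tumor CD45+ with isotype they were 212 and 50, against 658 and 257 at 10 UMIs and 605 and 293 at 1.5-fold. With anti-PD1 they were 650 and 497, against 1258 and 913, and 1471 and 1088. In tumor CD8+ with isotype they were 113 and 106, against 492 and 510, and 244 and 352. With anti-PD1 they were 40 and 133, against 248 and 499, and 160 and 326. In spleen CD45+ with isotype they were 17 and 103, against 182 and 534, and 116 and 413. With anti-PD1 they were 36 and 106, against 260 and 432, and 190 and 317. In spleen CD8+ with isotype they were 91 and 122, against 374 and 445, and 271 and 243. With anti-PD1 they were 116 and 26, against 522 and 198, and 356 and 163. In all 8 pairs, 6 genes were higher and 1 was lower at 1.5-fold.

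Libraries could not be paired by replicate, because each condition has 1 library and the labels give no replicate numbers. The genotype pairs match libraries by tissue, sort and treatment only, and no test over these pairs was run. Differences between single libraries include differences between the pooled mice, which cannot be told apart from genotype here. Near-identical copies can trade or lose counts, so the level of each copy is less certain than its paralog sum.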
